A study of Mus musculus with 6 samples.

Results

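The set described here is 10 imprinted genes with known roles in growth, namely H19, Igf2, Dlk1, Meg3, Plagl1, Cdkn1c, Grb10, Mest, Ndn and Peg3. The group was chosen by name because H19 counts fell in the dorsal root ganglia (DRGs) of mice lacking Tlx3 in nociceptive neurons. The 10 genes are 10 of the 47937 rows of the read count table, and all 10 were among the 20006 rows with at least 10 counts over the 6 libraries. Because the fall of H19 selected the group, the values of H19 are a description with no test. For the other 9 genes, the adjusted p of the fit across all 20006 rows is given. The rule named only the fall of H19, but the members were listed with earlier results of these data known. Their p-values are therefore not independent of that choice.

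An imprinted gene is expressed mainly from the copy inherited from 1 parent, under the control of DNA methylation set in the germ line. Igf2, Dlk1, Plagl1, Mest, Ndn and Peg3 are known to be read from the paternal copy in mouse, and H19, Meg3 and Cdkn1c from the maternal copy, while Grb10 is maternal in most tissues and paternal in neurons. Several of these genes are abundant in the embryo and fall sharply after birth, and paternally expressed members often favour growth while maternally expressed ones restrain it. The read counts hold both copies of a gene together, so they carry no information on which copy was read.

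RNA sequencing was done on DRGs of the cervical, thoracic and lumbar levels, from 3 control and 3 Tlx3cko mice, all on the C57BL/6 strain and about 2 months old. The Tlx3cko mice (Tlx3f/f;SNS-cre) carried floxed Tlx3 and SNS-cre, a Cre driven by the Nav1.8 promoter, which removes Tlx3 from most nociceptive neurons and leaves the other cells of the ganglion with the gene. Controls are labelled wild type in GEO, but the behavioural tests of the paper took Tlx3F/F littermates as controls, so the sequenced controls may carry the floxed allele too. The libraries held between 11458299 and 18775628 counts. The targeted gene Tlx3 stood at 2057 ± 173 normalized counts (SD, n = 3) in control and 1495 ± 141 normalized counts (SD, n = 3) in Tlx3cko DRGs, 72.7% of control, with no overlap between the groups. Normalized counts are read counts brought to a common library size, the mean of the TMM-adjusted totals. Xist, the RNA of the inactive X chromosome, held 591 and 493 counts in control replicates 1 and 2 and at most 2 in control replicate 3 and in each Tlx3cko library, which had 273 to 525 counts on the Y-linked Ddx3y. The genotype contrast was therefore partly a contrast of sexes, and a fit with a term for it compares control replicate 3 with the 3 Tlx3cko libraries.

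Several of the genes are hosts of microRNAs. The mature sequences of the microRNAs in H19, Igf2 and Meg3, the members with the largest log2 fold changes, are printed from RefSeq on GRCm38.p6, 5′ to 3′, with the seed (bases 2 to 8) in capitals. The pair from H19 lies on the minus strand at chr7:142577112-142577133 for the 5p arm and chr7:142577078-142577099 for the 3p arm, inside an exon of H19.
mmu-miR-675-5p: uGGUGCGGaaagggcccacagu
mmu-miR-675-3p: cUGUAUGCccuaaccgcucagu
mmu-miR-483-5p: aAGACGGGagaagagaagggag
mmu-miR-483-3p: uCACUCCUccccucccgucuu
mmu-miR-770-5p: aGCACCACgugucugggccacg
mmu-miR-770-3p: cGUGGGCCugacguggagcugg
mmu-miR-1906: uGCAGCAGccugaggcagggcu
With the pair in Mest, miR-335, 9 mature microRNAs were matched in 4 of the host genes, and their 9 seeds all differed. The rows of the precursors Mir675, Mir483, Mir770 and Mir1906-1 held 0 counts in every library, which allows up to 3 counts per library, and Mir335 held 1 count in control replicate 2. Mir675 and Mir770 lie wholly within exons of H19 and Meg3 on the same strand, so their reads may have gone to the host row or been dropped. These counts therefore give no level of the mature microRNAs.

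H19, a noncoding RNA read from the maternal copy beside Igf2, was lower in every Tlx3cko library than in every control library. The gene (ENSMUSG00000000031) lies on the minus strand at chr7:142575529-142578143 on GRCm38 and has 2460 exonic bases. Its counts were 203, 156 and 168 in control libraries, against 105, 65 and 75 in Tlx3cko libraries. Normalized, they were 219.1, 155.6 and 134.0 in control DRGs, against 101.1, 85.3 and 73.8 in Tlx3cko DRGs. Control replicate 1 stood highest and control replicate 3 was the control nearest to the Tlx3cko libraries. The mean went from 169.6 ± 44.2 to 86.7 ± 13.7 normalized counts (SD, n = 3 each), 51.1% of control, a log2 fold change of -0.96 (SE 0.22). With the term for Xist libraries the log2 fold change was -0.63, and without control replicate 1 it was -0.74. The RNA came from whole ganglia, so fewer cells that make H19 and less H19 RNA per cell cannot be told apart.

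Reads of H19 may be shared with other rows of the table. Its exons hold Mir675 on the same strand and the small annotated RNAs Gm27483 (chr7:142576853-142576923) and Gm27786 (chr7:142577849-142577918) on the opposite strand. The library kit does not mark strand, and whether the counting used strand is not given in the sources used here, so reads of these rows and of H19 cannot be told apart. Gm27483 had 84.1 ± 25.6 normalized counts in control DRGs, against 50.1 ± 6.12 in Tlx3cko DRGs (SD, n = 3 each), 59.5% of control, with groups that overlapped. Gm27786 had 63.3 ± 14.9 and 34.7 ± 7.07 normalized counts (SD, n = 3 each), with no overlap. The sum of the 3 rows was 316.9 ± 74.4 in control and 171.5 ± 15.2 normalized counts in Tlx3cko DRGs, 54.1% of control, so the lower level at H19 was seen with the nested rows added to it.

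Igf2, which encodes the secreted insulin-like growth factor 2 and shares enhancers with H19, was also lower in every Tlx3cko library. It (ENSMUSG00000048583) lies on the minus strand at chr7:142650766-142666816. Its normalized counts were 251.5, 295.2 and 185.1 in control DRGs, against 170.4, 139.1 and 129.9 in Tlx3cko DRGs. Here control replicate 2 stood highest, and control replicate 3 was again the control nearest to the Tlx3cko libraries. The mean went from 243.9 ± 55.5 to 146.5 ± 21.2 normalized counts (SD, n = 3 each), 60.0% of control. This difference did not pass the threshold, with a log2 fold change of -0.73 (SE 0.19, adjusted p = 0.0509 in edgeR's quasi-likelihood fit, Benjamini-Hochberg adjustment). It stood so near the threshold that 6 of 14 alternatives put it past it, among them the fits without control replicate 3 (edgeR adjusted p = 0.0182) and without Tlx3cko replicate 1 (0.04995), and the adjusted p ranged from 0.00159 to 0.68, the highest with the term for Xist libraries, where the log2 fold change was -0.34. In total 62.8% of its exonic bases are shared with Gm49394 on the same strand, which has no row in the table. The ratio of H19 to Igf2 counts was 0.871, 0.527 and 0.724 in control libraries, against 0.593, 0.613 and 0.568 in Tlx3cko libraries, so the ranges overlapped.

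**Figure D1:**
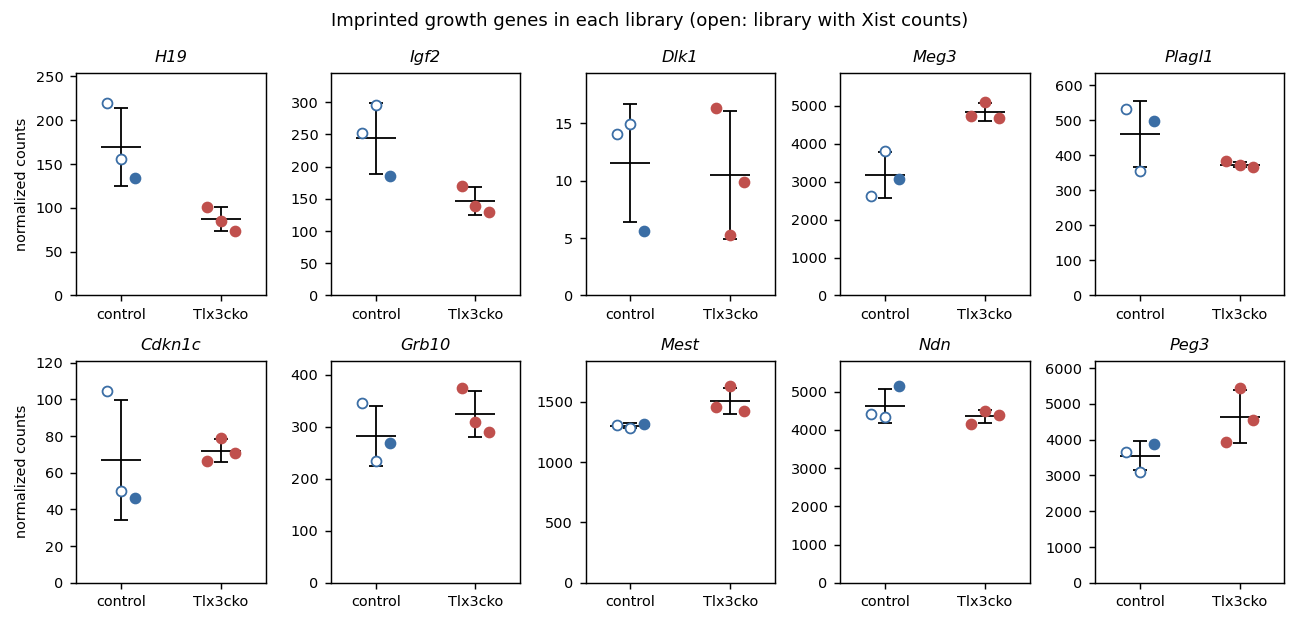
Normalized counts (y axis of each panel, starting at 0) of the 10 imprinted growth genes in 3 control and 3 Tlx3cko libraries. Points are libraries, open where Xist was counted, and the line and bar give the mean and SD. H19 and Igf2 sit lower and Meg3, Mest and Peg3 higher in all 3 Tlx3cko libraries than in any control library.

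Levels per exonic length differed widely among the 10 genes. They are given as RPKM, normalized counts per kilobase of exon, scaled by library size in the usual way. In control DRGs Ndn stood at 83.7 ± 7.99 RPKM (SD, n = 3), ahead of Mest at 22.1 ± 0.349, Peg3 at 17.8 ± 2.01 and Meg3 at 11.7 ± 2.22, and the control ranges of these 4 neighbours did not overlap. The other genes were far lower, with H19 at 4.60 ± 1.20, Plagl1 at 3.95 ± 0.809, Igf2 at 2.85 ± 0.647, Cdkn1c at 2.19 ± 1.07 and Grb10 at 2.08 ± 0.42 RPKM, and each of these overlapped the next in its control range. Dlk1 was lowest, at 0.136 ± 0.061 RPKM, below the range of every other member. In Tlx3cko DRGs the first 4 places were the same by mean, although the ranges of Mest (25.5 ± 1.83 RPKM) and Peg3 (23.3 ± 3.75 RPKM) overlapped there. H19 ranked at place 5 in control and at place 8 in Tlx3cko DRGs, at 2.35 ± 0.371 RPKM, where its range overlapped that of Cdkn1c (2.36 ± 0.204 RPKM) and lay just above that of Igf2 (1.71 ± 0.247 RPKM).

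**Figure D2:**
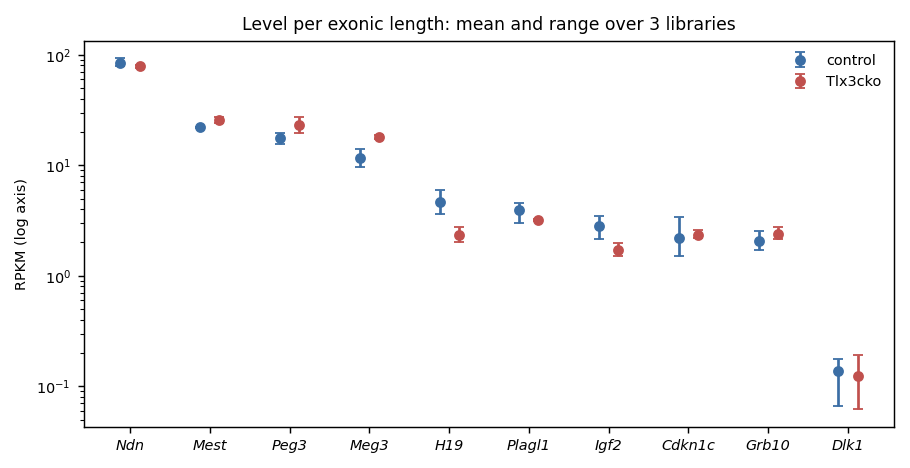
Level per exonic length of the 10 genes in RPKM on a log axis, ordered by the control mean. Points are means over 3 libraries and bars the range, in blue for control and red for Tlx3cko. Ndn is highest and Dlk1 lowest in both genotypes, and H19 is at place 5 in control and at place 8 in Tlx3cko DRGs.

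Meg3 was the only one of the 9 other members past the threshold, and it rose. Meg3, a noncoding RNA read from the maternal copy of the Dlk1-Dio3 cluster and known as a growth suppressor in cell lines, lies on the plus strand at chr12:109541001-109571726 (ENSMUSG00000021268). Its normalized counts were 2628, 3815 and 3057 in control DRGs, against 4719, 5101 and 4668 in Tlx3cko DRGs. Every Tlx3cko library was above every control library. The mean rose from 3167 ± 601 to 4829 ± 237 normalized counts (SD, n = 3 each), 152.5% of control, with a log2 fold change of 0.61 (SE 0.11, edgeR adjusted p = 0.00659). The call was lost in 1 of 14 alternatives, the term for Xist libraries, where the log2 fold change was 0.66 and the edgeR adjusted p was 0.0701, against a range over the alternatives that began at 1.85e-10. Gm26906, annotated on the opposite strand inside Meg3, had 604.4, 994.4 and 554.4 normalized counts in control and 840.2, 1125 and 1181 in Tlx3cko DRGs, and its reads cannot be told apart from those of Meg3 without strand.

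Other transcripts of the same cluster were measured beside Meg3. Rian, a second maternal noncoding RNA of the cluster, had 2655 ± 130 normalized counts in control DRGs, against 2960 ± 172 in Tlx3cko DRGs (SD, n = 3 each), with groups that overlapped and a log2 fold change of 0.16 (SE 0.08, edgeR adjusted p = 0.385). Mirg, a maternal RNA that hosts a microRNA array, had 57.8 ± 13.8 and 92.6 ± 6.18 normalized counts (SD, n = 3 each), with no overlap and a log2 fold change of 0.67 (SE 0.23, edgeR adjusted p = 0.163). The ratio of Meg3 to Rian counts lay between 1.04 and 1.44 in the control libraries and between 1.50 and 1.84 in the Tlx3cko libraries. The retrotransposon-derived Rtl1, a paternal gene, stood at 35.3 ± 10.5 and 52.4 ± 6.79 normalized counts (SD, n = 3 each), and its log2 fold change of 0.57 (SE 0.30) did not pass the threshold (edgeR adjusted p = 0.436). Dlk1, the paternal gene of the cluster that encodes a membrane ligand related to Notch ligands, lies at chr12:109452823-109463336 and was near the lower end of detection. Its counts were 13, 15 and 7 in control libraries, against 17, 4 and 10 in Tlx3cko libraries, so that no genotype difference could be detected with so few counts (log2 fold change -0.09, SE 0.62, edgeR adjusted p = 0.972).

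Mest, Peg3 and Ndn were the other abundant members, all read from the paternal copy. Mest (chr6:30723547-30748465), which encodes a protein of the alpha/beta hydrolase fold, had 1310, 1281 and 1320 normalized counts in control and 1458, 1628 and 1428 in Tlx3cko DRGs. The controls were close together, at 1304 ± 20.6 against 1505 ± 108 normalized counts (SD, n = 3 each), and the groups did not overlap, but the log2 fold change of 0.21 (SE 0.08) did not pass the threshold (edgeR adjusted p = 0.253). In Mest 23.1% of the exonic bases lie opposite Copg2. Peg3 (chr7:6703892-6730431, minus strand), which encodes a zinc finger protein of growth and maternal care, had 3651, 3109 and 3892 normalized counts in control and 3945, 5433 and 4565 in Tlx3cko DRGs. The lowest Tlx3cko library stood just above the highest control. Its mean was 3551 ± 401 in control and 4648 ± 747 normalized counts in Tlx3cko DRGs (SD, n = 3 each), 130.9% of control, with a log2 fold change of 0.39 (SE 0.11, edgeR adjusted p = 0.0844). Without Tlx3cko replicate 1 this became 0.49 (edgeR adjusted p = 0.0262), in a range of adjusted p from 2.68e-04 to 0.638 over the 14 alternatives. Ndn (chr7:62346569-62350262), which encodes necdin, a MAGE family protein of postmitotic neurons, had 4631 ± 442 and 4352 ± 178 normalized counts (SD, n = 3 each) with overlapping groups (log2 fold change -0.09, SE 0.08, edgeR adjusted p = 0.709).

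Meg3 and Peg3, the members with the largest positive log2 fold changes, were compared in the 250 bases before a transcription start of each. The stretches come from RefSeq on GRCm38.p6 and are printed 5′ to 3′ along the transcript, chr12:109540746-109540995 on the plus strand for Meg3 and chr7:6730420-6730669 on the minus strand for Peg3. The letters searched on both strands were TGACGTCA (the palindrome bound by CREB family factors), TATAAA (the TATA box) and GGGGCCCC (a GC-rich palindrome of the kind bound by Plagl1). Capitals mark matches on the printed strand only.
Meg3: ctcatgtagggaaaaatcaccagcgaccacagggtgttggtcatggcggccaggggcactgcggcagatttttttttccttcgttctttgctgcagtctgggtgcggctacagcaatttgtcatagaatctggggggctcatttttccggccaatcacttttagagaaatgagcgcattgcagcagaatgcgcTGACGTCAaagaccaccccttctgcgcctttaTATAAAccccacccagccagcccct
Peg3: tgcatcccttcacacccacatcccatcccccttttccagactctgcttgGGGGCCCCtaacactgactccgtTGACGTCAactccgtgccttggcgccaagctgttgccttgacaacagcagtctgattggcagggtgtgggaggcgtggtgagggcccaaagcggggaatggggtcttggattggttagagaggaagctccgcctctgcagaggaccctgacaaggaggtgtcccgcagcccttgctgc
Both stretches held TGACGTCA, at bases -57 to -50 from the start in Meg3 and -178 to -171 in Peg3. Meg3 has another entry, chr12:109545148-109545447, which held none of the searched strings and is not printed. The printed Meg3 entry was picked because it held TGACGTCA, so that match was fixed in advance. Over windows of 300 bases, this letter string was in 1.79% of all 32851 promoter entries and in 2 of the 15 entries of the 8 members with one. The Meg3 stretch held TATAAA at -25 to -20, with an overlapping match on the other strand at -29 to -24, against 13.6% of all entries, and Peg3 held GGGGCCCC at -201 to -194, against 1.08%. These matches are letters in a window and do not show that a factor was bound. The 15 entries held between 1 and 45 CG pairs, with a median of 13 against 7 over all entries.

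The regulators Plagl1, Grb10 and Cdkn1c showed no difference past the threshold. Plagl1 (chr10:13060504-13131694), which encodes a zinc finger factor known to act on Igf2, H19 and Cdkn1c, had 532.1, 354.1 and 499.3 normalized counts in control and 383.0, 371.4 and 367.1 in Tlx3cko DRGs. Control replicates 1 and 3 lay above the Tlx3cko libraries and control replicate 2 below them (log2 fold change -0.31, SE 0.15, edgeR adjusted p = 0.365). Grb10 (chr11:11930508-12038683, minus strand), an adaptor that restrains insulin and IGF receptor signalling, had 345.4, 233.4 and 269.6 normalized counts in control and 374.4, 309.7 and 290.3 in Tlx3cko DRGs, with overlap (log2 fold change 0.20, SE 0.16, edgeR adjusted p = 0.658). The CDK inhibitor p57, encoded by Cdkn1c (chr7:143458339-143461050, minus strand) in the domain next to H19, was unusual in its spread. Control replicate 1 held 104.7 normalized counts against 49.9 and 46.3 in the other controls, and the Tlx3cko libraries held 66.4, 78.7 and 70.9 (log2 fold change 0.11, SE 0.31, edgeR adjusted p = 0.923). Its sign turned to -0.05 without control replicate 2 and -0.10 without control replicate 3. The antisense row Gm44732, which covers 30.7% of the exonic bases of Cdkn1c, was also highest in control replicate 1, at 119.8 normalized counts against 67.0 to 82.7 in the other 5 libraries.

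Counted over the 9 members other than H19, 0 were lower and 1 was higher past the threshold in edgeR, where 2.56% of the 20006 rows were called lower and 1.69% higher. At an unadjusted p under 0.05, 1 was lower and 3 were higher, beside 7.92% and 6.63% of all rows. DESeq2 called 1 lower and 2 higher, beside 3.73% and 2.93% of the 17286 rows it gave an adjusted p, and limma-voom called 0 lower and 1 higher, beside 2.49% and 1.78%. The groups did not overlap for 1 member that was lower and 3 that were higher, beside 10.8% and 8.87% of all rows tested. The median log2 fold change of the 9 was 0.11, against -0.0036 over all rows tested, with 4 negative and 5 positive values. As the group was picked from this contrast, nothing is read from these shares. A p that misses the threshold does not show that a level was equal in both genotypes.

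Beyond the 10, a list of 46 other imprinted genes was examined, of which 39 passed the count filter. In edgeR 2 were lower and 2 were higher past the threshold, beside 2.56% and 1.69% of all rows tested, and the median log2 fold change was 0.14. The groups did not overlap for 5 lower and 8 higher genes, beside 10.8% and 8.87% of all rows. Nnat, which encodes the membrane proteolipid neuronatin and is read from the paternal copy, fell furthest among the 4. Its normalized counts were 227.7, 329.1 and 337.4 in control DRGs, against 157.8, 81.4 and 107.3 in Tlx3cko DRGs (log2 fold change -1.36, SE 0.23, edgeR adjusted p = 0.00357). Rasgrf1, a paternally expressed exchange factor for Ras and Rac, rose from 222.3, 167.6 and 183.5 to 354.2, 438.3 and 375.9 normalized counts (log2 fold change 1.03, SE 0.15, edgeR adjusted p = 0.00108). Both passed the threshold in all 14 alternatives.

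Ppp1r9a and Dcn, maternally expressed at least in placenta, passed by less. Ppp1r9a, which encodes the actin-binding phosphatase partner neurabin, rose from 480.9 ± 59.8 to 681.3 ± 32.5 normalized counts (SD, n = 3 each, log2 fold change 0.50, SE 0.11, edgeR adjusted p = 0.0241). Its call was lost without control replicate 2 (0.0994), without Tlx3cko replicate 2 (0.107) or 3 (0.0952) and with the term for Xist libraries (0.422), in a range of edgeR adjusted p from 0.00117 to 0.422. Decorin, a small proteoglycan of the extracellular matrix encoded by Dcn, fell from a mean of 1822 ± 166 to 1385 ± 142 normalized counts (SD, n = 3 each, log2 fold change -0.39, SE 0.10, edgeR adjusted p = 0.0395). That call was lost without control replicate 1 (0.112) or 2 (0.106), without Tlx3cko replicate 2 (0.201) or 3 (0.103) and with the term for Xist libraries (0.512), in a range of edgeR adjusted p from 8.74e-04 to 0.512. Gnas, encoding the stimulatory G protein subunit, was the most counted of the list at 35750 ± 1480 and 38200 ± 351 normalized counts (SD, n = 3 each, log2 fold change 0.10, SE 0.06, edgeR adjusted p = 0.556).

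The other imprinted genes were also sorted by cluster and by the parental copy known for each gene in at least some tissue. The copy read in DRGs was not measured. Over all rows tested, edgeR called 2.56% lower and 1.69% higher, and 7.92% and 6.63% had an unadjusted p under 0.05. DESeq2 called 3.73% lower and 2.93% higher, and limma-voom 2.49% and 1.78%. Of 19 tested genes listed as maternal, 1 was lower and 1 higher in edgeR, with a median log2 fold change of 0.16. Of 20 listed as paternal, 1 was lower and 1 higher, with a median of 0.12. In the domain of H19, Igf2 and Cdkn1c, the 4 other tested genes had a median log2 fold change of -0.38 and edgeR called 0 in either direction, with 1 lower and 0 higher at an unadjusted p under 0.05 and also in DESeq2 and limma-voom. That gene was the organic cation transporter Slc22a18, named after its values were seen, at 193.2, 209.4 and 193.0 normalized counts in control and 122.2, 81.4 and 147.6 in Tlx3cko DRGs (log2 fold change -0.75, SE 0.20, edgeR adjusted p = 0.0573). In the Dlk1-Dio3 cluster all 3 other tested genes had positive values with a median of 0.57, and edgeR called 0, with 1 higher at an unadjusted p under 0.05 and 0 in DESeq2 and limma-voom.

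**Figure D3:**
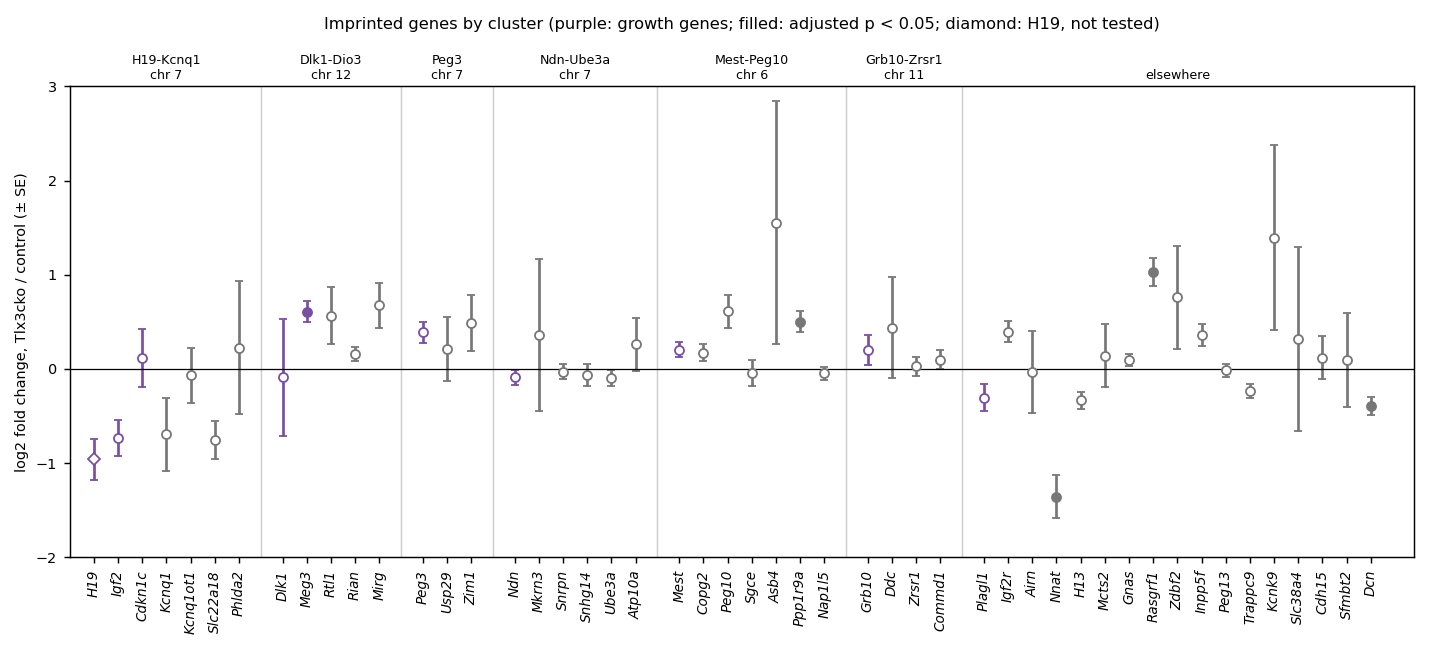
Log2 fold change of Tlx3cko over control with its SE (y axis) for the 10 growth genes (purple) and the 39 other tested imprinted genes (grey), grouped by cluster along the x axis. Filled points passed an edgeR adjusted p of 0.05, and H19 is a diamond with no test. The filled points are Meg3, Ppp1r9a and Rasgrf1 above 0 and Nnat and Dcn below it.

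The partners of Igf2 and Cdkn1c and the proteins that keep imprints were then examined. The IGF list held Igf1, the receptors and their substrates, the binding proteins and the Igf2 mRNA-binding proteins. Of its 19 genes 17 were tested, and edgeR called 0 in either direction, with 1 lower and 3 higher at an unadjusted p under 0.05, against 0 lower and 1 higher in DESeq2 and 0 in limma-voom. Over all rows, 7.92% were lower and 6.63% higher at that unadjusted p. The shares called were 2.56% and 1.69% in edgeR, 3.73% and 2.93% in DESeq2, and 2.49% and 1.78% in limma-voom. The gene that DESeq2 called was Igf2r, named after its values were seen, a maternally expressed receptor that takes up and degrades Igf2, with 418.3 ± 37.0 and 551.4 ± 21.3 normalized counts (SD, n = 3 each, log2 fold change 0.40, SE 0.11, edgeR adjusted p = 0.0641). Igfbp4, a secreted IGF-binding protein and the most counted gene of the list in control, had 1331 ± 97.9 and 1287 ± 143 normalized counts (SD, n = 3 each). Irs2, the receptor substrate with the most counts in Tlx3cko DRGs, had 1305 ± 150 and 1502 ± 36.2 (SD, n = 3 each), and neither passed the threshold (edgeR adjusted p = 0.898 and 0.334).

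All 6 relatives of Cdkn1c among the CDK inhibitors were tested, and edgeR called 0, as did DESeq2, limma-voom and an unadjusted p under 0.05. Over all rows, edgeR called 2.56% lower and 1.69% higher, DESeq2 3.73% and 2.93%, and limma-voom 2.49% and 1.78%. At an unadjusted p under 0.05 the shares were 7.92% and 6.63%. Cdkn2d, which inhibits CDK4 and CDK6 and had the highest level among them, had 1297 ± 58.8 normalized counts in control DRGs, against 1410 ± 102 in Tlx3cko DRGs (SD, n = 3 each, edgeR adjusted p = 0.608). Among the 8 imprint maintenance genes, which include the insulator protein gene Ctcf and the DNA methyltransferases, edgeR, DESeq2, limma-voom and an unadjusted p under 0.05 each called 0. In lists of 6 and 8 genes, counts of 0 cannot be told apart from these shares, so nothing is read from them. The corepressor gene Trim28, the most counted of them, had 1133 ± 63.6 and 1137 ± 58.2 normalized counts (SD, n = 3 each, edgeR adjusted p = 0.992).

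Markers of the cells in and around the ganglion were summed in each library, because H19, Igf2 and Dcn are known to be expressed by fibroblasts and muscle. The 7 fibroblast and meninges markers summed to 2843 to 3881 normalized counts in control and 2455 to 2659 in Tlx3cko DRGs, with no overlap and all 7 lower by their fitted value. Aldh1a2, a gene of meningeal cells, had 0 counts in Tlx3cko replicate 3, and the other 6 were detected in every library. Past the edgeR threshold 3 of the 7 fell, beside 2.56% of all rows tested. These were the collagen genes Col1a1 (log2 fold change -0.52, SE 0.13, edgeR adjusted p = 0.0346) and Col3a1 (-0.78, SE 0.17, edgeR adjusted p = 0.0163) and the fibroblast receptor gene Pdgfra (-0.79, SE 0.19, edgeR adjusted p = 0.0354). H19 and Igf2 thus moved together with these markers in direction, and the part of such cells in their levels was not tested. This direction was not particular to fibroblast markers. All 9 blood and marrow markers and all 5 macrophage markers were also lower by their fitted value, beside 10134 of all 20006 rows tested. Within the controls, control replicate 1 was highest in H19 (129.2% of the control mean) and lowest in the summed fibroblast markers (82.2%). By single gene, Col1a1, Col1a2, Col3a1 and Lum were lowest in control replicate 1, like the sum, and Aldh1a2 was between the other controls. Pdgfra (181.3, 131.7 and 178.7 normalized counts in controls 1 to 3) and Slc6a13 (42.1, 34.9 and 21.5) were highest there, like H19. Dcn, which is outside the marker list, was also highest there (1995, 1809 and 1662). Over the 6 libraries Pearson's r with H19 was 0.888 for Pdgfra and 0.916 for Dcn, beside 0.556 for Col3a1 and 0.549 for Col1a1, a description over libraries that share the genotype contrast. With the genotype mean taken from each library, r was 0.416 for Pdgfra and 0.644 for Dcn. For Col3a1 and Col1a1 it was then negative, at -0.719 and -0.837. Of the 7 markers, r was computed for Pdgfra, Col3a1 and Col1a1 only.

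The other marker lists gave a mixed picture. The 8 skeletal muscle markers summed to 2938, 705.1 and 150.0 normalized counts in control and 3759, 3040 and 2098 in Tlx3cko DRGs, so muscle RNA varied widely between control libraries, and control replicate 1 lay within the Tlx3cko range. Of these 8, 1 was called higher, the fast myosin gene Myh4 (log2 fold change 2.87, SE 0.56, edgeR adjusted p = 0.0102), a call also made by limma-voom while DESeq2 called 0 of the 8. Over all rows tested, edgeR called 1.69% higher. Blood and marrow markers summed to 2009 to 4416 in control and 1757 to 2638 normalized counts in Tlx3cko DRGs, with overlap. Their sum was highest in control replicate 1 (142.5% of the control mean), as was H19. Of these 9 markers, edgeR, DESeq2 and limma-voom each called 0. At an unadjusted edgeR p under 0.05, 4 were lower, beside 7.92% of all rows tested. The 7 sensory neuron markers, all detected in every library, summed to 102300 to 108000 in control and 112800 to 118200 normalized counts in Tlx3cko DRGs. Of these, Nefh, a neurofilament gene of myelinated neurons, and Scn10a, the gene of Nav1.8, rose (log2 fold changes 0.36 and 0.43, SE 0.06 and 0.07, edgeR adjusted p = 0.00532 and 0.00281). The Tlx3cko mice carried a Cre driven by the Nav1.8 promoter, and any part of this driver in the Scn10a counts was not tested. The intermediate filament gene Prph, the transcription factor gene Pou4f1 and the actin regulator gene Avil stood at 91.8%, 88.1% and 92.1% of control. For each the groups did not overlap, and none passed the threshold (edgeR adjusted p = 0.444, 0.206 and 0.453). Over all rows tested, 1.69% were called higher in edgeR and 10.8% were lower without overlap. By fitted value, 3 of the 7 neuronal markers were lower and 4 higher. Satellite glia markers summed to 36770 to 45360 in control and 43110 to 48190 in Tlx3cko DRGs, and Schwann cell markers to 34300 to 41530 and 36810 to 41730 normalized counts. Endothelial and mural markers summed to 2041 to 2446 and 2144 to 2394 normalized counts, where the endothelial adhesion gene Pecam1 rose (log2 fold change 0.66, SE 0.15, edgeR adjusted p = 0.0203), and macrophage markers to 608.6 to 672.2 and 540.9 to 636.7 normalized counts. Fat markers summed to 15.9 to 40.9 and 0.984 to 25.0, and spinal cord markers to 63.7 to 125.2 and 63.0 to 163.4 normalized counts. Cartilage and bone markers summed to 106.7 to 150.0 and 170.4 to 228.3 normalized counts without overlap, with 1 of their 4 genes at 0 in every library, the osteoblast gene Bglap. The part of these cells in the levels of the imprinted genes was not tested.

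**Figure D4:**
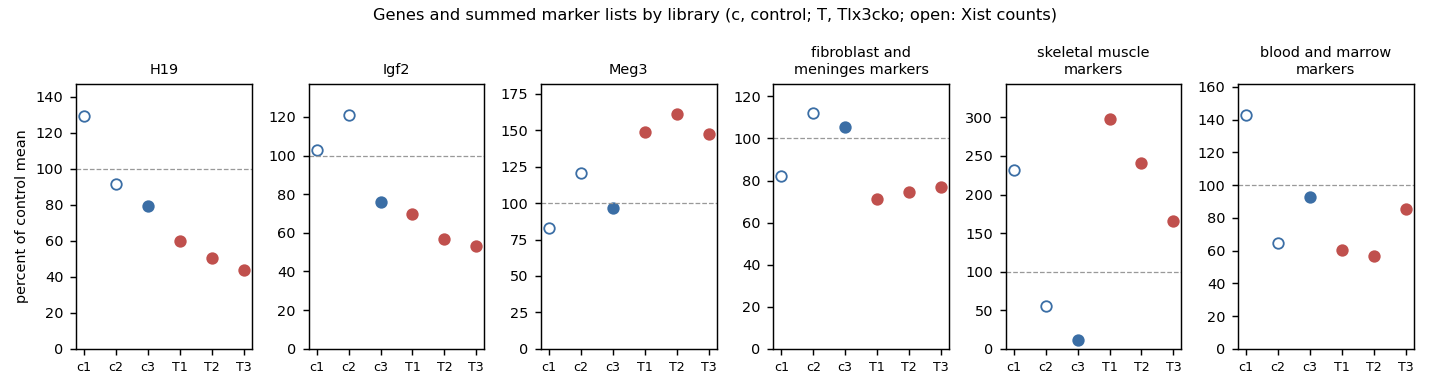
Level in each library as a percent of the control mean (y axis of each panel, starting at 0) for H19, Igf2 and Meg3 and for the summed normalized counts of 3 marker lists. The x axis gives control (c1 to c3, blue) and Tlx3cko (T1 to T3, red) libraries, with open points where Xist was counted. H19, Igf2 and the fibroblast and meninges markers are lower in all 3 Tlx3cko libraries than in any control library, and the skeletal muscle markers vary most among the controls.

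The rows most like H19 over the 6 libraries were ranked by Pearson's r of log2 normalized counts among the 13302 genes that averaged 50 normalized counts or more. These libraries share the genotype contrast and the split by Xist, so r is a description without a test. The closest 5 were Klf6 (r = 0.997), Fam131b (0.994), Tax1bp3 (0.994), Zmiz2 (0.990) and Lrp10 (0.988), none of them imprinted in the lists used here. Igf2 stood at rank 249 with r = 0.896, Plagl1 had r = 0.672, and Meg3, Mest and Peg3 had r of -0.890, -0.752 and -0.744. After the genotype mean was taken from each library, the closest 5 were Gps2 (r = 0.999), H1f0 (0.999), Surf1 (0.996), Pou4f3 (0.994) and Vstm2l (0.993). Among the members, r of these deviations with H19 was 0.838 for Grb10, 0.773 for Cdkn1c and 0.599 for Igf2, all of which had more normalized counts in control replicate 1 than in control replicate 3, and -0.660 for Ndn.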

How the data were processed

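Libraries were made by the study with the NEBNext Ultra RNA kit from total RNA of DRGs. The authors deposited raw counts of reads per gene, without normalization. The submitters' processing notes name STAR 2.5.2a and mm10. The counting program and its use of strand are not given in the sources used here. Rows were named and placed with GENCODE M21 on GRCm38, and sequences come from RefSeq tables on GRCm38.p6.

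The members and gene lists were chosen with earlier results of these data known. Rows with at least 10 counts in total (20006 of 47937) were scaled by TMM, then tested in edgeR 4.0.16 in R 4.3.3 (quasi-likelihood test, Benjamini-Hochberg adjusted p under 0.05). Standard errors follow from each log2 fold change divided by the root of its F value. The threshold for calls was the same in the 14 alternatives, which used DESeq2 1.42.0, limma-voom (limma 3.58.1), other normalizations and filters, a replicate block, a term for libraries with Xist counts (over 50), and each library left out in turn. The scripts were tested on simulated counts.

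Genes named are the 10 members, Tlx3, listed genes past the threshold, the highest of each list by mean level, marker genes, and the 5 rows most like H19 by each of 2 measures, with 0.5 added to normalized counts before log2. Library totals were 11458299 to 18775628, and a count of 0 was read as allowing up to 3 counts, for counting error only. Replicates differed by more than sampling noise (chi-square per degree of freedom 4.46 to 10.7). The samples are given as 3 mice per genotype, so p-values measure the spread between these mice. With 3 libraries against 3, an exact permutation test of 1 gene cannot give a two-sided p below 0.1.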

Additional observations from a re-analysis of the deposited data

How the results depend on the processing

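Fits without the low-count filter called 858 genes lower and 671 higher among all rows, against 512 and 339 with it, and the term for Xist libraries called 334 and 153. Among the 9 members other than H19, the number lower went from 0 to 1 (Igf2) in DESeq2, with library totals only, without the filter and with the replicate block. The number higher went from 1 to 2 (Meg3 and Peg3) in DESeq2 and without the filter, and to 0 with the term for Xist libraries. For the other imprinted genes, 4 were lower in DESeq2 and without the filter and 1 with the term for Xist libraries, and 4 (DESeq2), 5 (no filter) and 1 (term for Xist libraries) were higher, against 2 and 2. In the IGF list, 1 was lower without the filter (Igfbp6) and 1 higher in DESeq2 and without the filter (Igf2r), against 0 and 0. Leaving out each library in turn gave 310 to 530 genes lower and 175 to 408 higher. It gave 0 to 1 members lower and 1 to 2 higher, 1 to 3 other imprinted genes in either direction, and 0 to 1 IGF genes lower and 0 higher. The counts of CDK inhibitor and imprint maintenance genes were 0 in all 14 alternatives. The replicate numbers did not pair the libraries, as same-numbered controls and Tlx3cko libraries had correlations of deviations from -0.139 to -0.0036, and the replicate block changed no other count of these lists by over 1.5 times. The sign of Dlk1 turned positive in limma-voom (0.0060), with the term for Xist libraries (0.92) and without control replicate 1 (0.08), control replicate 2 (0.15) or Tlx3cko replicate 2 (0.21), in a range from -0.56 to 0.21 over the libraries left out. Cdkn1c turned negative without control replicate 2 (-0.05) or 3 (-0.10), in a range up to 0.58, and Igfbp6 turned positive with the term for Xist libraries (0.20). The log2 fold change of H19 stayed negative throughout, from -1.11 to -0.63. The causes of these shifts were not tested. The low counts of Dlk1 (4 to 17 per library) limit its precision.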
